A study of Mus musculus with 15 samples.

Results

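Splenic B cells lacking both SHLD1 and XLF were compared with wild-type (WT) B cells at the level of single DNA junctions made during class switch recombination. The comparison used 5 of the 15 libraries of the series, 2 of Shld1-/-Xlf-/- cells and 3 of WT cells. Libraries were assigned to genotypes by the number of Sγ1 junctions printed for each repeat in the study's own plots, which equals the number in each junction list, because the genotype deposited with a library often differed from the genotype printed for its count. Shld1-/-Xlf-/- repeat 2 was deposited with the label XLF-/-, and Shld1-/-Xlf-/- repeat 3 with the label Shld1-/-XLF-/-. WT repeat 1 was deposited as WT, WT repeat 2 as Shld1-/- and WT repeat 3 as XLF-/-. The single mutants were read in the same way from 5 further libraries, 3 printed as Shld1-/- (repeats 1, 2 and 3, deposited as WT, Shld1-/- and Shld1-/-XLF-/-) and 2 printed as Xlf-/- (repeats 1 and 2, deposited as WT and XLF-/-), so 6 of the 10 libraries carry different labels in the deposit and in print. Genotypes below are the printed ones. When the same libraries were grouped by deposited label, 0 of the 25 junction measures defined below passed the test for the double mutant against WT (limma on log odds, 0 also at an unadjusted p below 0.05), so every result below rests on the printed genotypes.

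All mice were of the C57BL/6 strain and 6 to 17 weeks old. B cells were purified from spleen, cultured in RPMI with serum, and stimulated for 96 h by dextran-coupled anti-IgD together with LPS and IL4, a mixture that directs switching mainly to IgG1. Both losses are germline knockouts, present in every cell of the mouse, and WT mice carried neither. The deposited target-locus field names a non-coding IgH Sm-Sa deletion for these libraries, which the study's methods do not describe for these mice. The lists hold DNA junctions and no RNA, so the B cell identity could not be checked against marker genes.

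During class switching, activation-induced deaminase starts breaks in the repetitive switch (S) region upstream of the μ constant exons and in that of a downstream isotype, and non-homologous end joining (NHEJ) fuses the ends. XLF is a core NHEJ factor that bridges broken ends. SHLD1 is a subunit of Shieldin, the complex that acts downstream of 53BP1 and RIF1 to protect ends from nucleolytic resection. When ends are resected, or NHEJ is impaired, alternative end joining can pair short identical stretches, or microhomologies (MH), exposed on either side of a break. A switch join that removes the DNA in between is deletional and can make antibody, whereas one that flips the partner end is inversional and cannot.

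CSR-HTGTS amplifies outward from a fixed end, the bait, here the region 5′ of Sμ, and reads the unknown partner, the prey. Junctions of each list had been mapped to mm9. Sγ1 was taken as chr12:114562000-114582000 and its core as the 8 kb from 114569000 to 114577000, the Sμ window as chr12:114653500-114673500, and the Igh window as chr12:114450000-114700000. The Igh locus runs toward the centromere on the minus strand, so positions downstream of a switch region have lower coordinates. The bait sequence at GRCm38 chr12:113426599-113426698, minus strand, lies upstream of Ighm. It is shown because the bait side of many junctions ends in it, and capitals mark 3 stretches that recurred as MH.

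5′Sμ bait: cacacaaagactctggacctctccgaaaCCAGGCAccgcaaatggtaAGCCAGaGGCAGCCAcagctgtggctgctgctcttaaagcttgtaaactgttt

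Example junctions are printed to show the types counted below. In each trio the junction as sequenced stands between the GRCm38 bait and prey sequences that met there, with 25 bases on each side and the shared MH in capitals. The first is a direct join, with no MH, of WT repeat 1 in core Sγ1 (prey at mm9 chr12 position 114570383, GRCm38 113332172), outside any annotated exon or intron.

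Bait 1: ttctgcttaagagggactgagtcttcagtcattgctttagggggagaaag
Junction 1: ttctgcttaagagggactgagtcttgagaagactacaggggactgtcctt
Prey 1: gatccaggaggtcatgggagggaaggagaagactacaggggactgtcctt

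The second is a deletional join of Shld1-/-Xlf-/- repeat 2 with 4 bp of MH, 1177 bp past the downstream core edge (prey at mm9 position 114567823, GRCm38 113329612), inside exon 3 of Ighg1.

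Bait 2: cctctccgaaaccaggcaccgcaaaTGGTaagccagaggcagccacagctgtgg
Junction 2: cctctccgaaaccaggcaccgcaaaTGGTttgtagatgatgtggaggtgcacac
Prey 2: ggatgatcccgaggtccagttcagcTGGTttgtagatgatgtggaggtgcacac

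The third is an inversional join of the same library in core Sγ1, with 5 bp of MH (prey at mm9 position 114576218, GRCm38 113338007), outside any annotated exon or intron.

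Bait 3: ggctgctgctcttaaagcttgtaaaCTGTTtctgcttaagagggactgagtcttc
Junction 3: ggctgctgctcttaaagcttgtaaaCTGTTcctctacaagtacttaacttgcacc
Prey 3: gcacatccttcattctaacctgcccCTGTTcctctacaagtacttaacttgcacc

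The last is a deletional join of Shld1-/-Xlf-/- repeat 3 far past Sμ, with 4 bp of MH, in an intron of Ighm (prey at mm9 position 114658815, GRCm38 113420604).

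Bait 4: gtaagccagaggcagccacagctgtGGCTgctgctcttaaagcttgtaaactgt
Junction 4: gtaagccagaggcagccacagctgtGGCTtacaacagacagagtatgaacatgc
Prey 4: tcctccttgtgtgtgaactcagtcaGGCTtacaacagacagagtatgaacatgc

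The double-mutant libraries held 3126 and 1590 junctions and the WT libraries 4441, 8531 and 7900, and all 10 libraries carried read names of 1 sequencing run with none shared between them. The Sγ1 counts by which the genotypes were assigned were 612 and 300 in the double mutant and 2350, 5181 and 4839 in WT. Of the junctions inside the Igh window, Sγ1 held 25.2% and 25.9% in the 2 double-mutant libraries and 57.2%, 63.9% and 64.2% in the WT libraries, which is a description and was not tested. Counting intervals (95%, Wilson) below cover sampling error only, and double-mutant repeat 3, with 300 Sγ1 junctions, has the widest. The share of Sγ1 rows that carried the pipeline's mapping-quality flag was 39.3 to 41.0% in WT and 15.7 and 17.3% in the double mutant, and each measure was also computed without those rows.

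Of the 25 junction measures, 23 differed between the double mutant and WT, 16 higher and 7 lower, which is 92.0% of those tested (limma on log odds, Benjamini-Hochberg adjusted p below 0.05). The measures overlap in the junctions they count, so they are not 25 separate findings. MH of 1 to 3 bp and junctions on other chromosomes did not pass. With 2 libraries against 3, an exact permutation test cannot give a two-sided p below 0.1, and it gave that value for all but 2 measures, MH of 1 to 3 bp (p = 0.9) and MH over 3 bp among deletional joins downstream of core Sγ1 (p = 0.2).

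**Figure D1:**
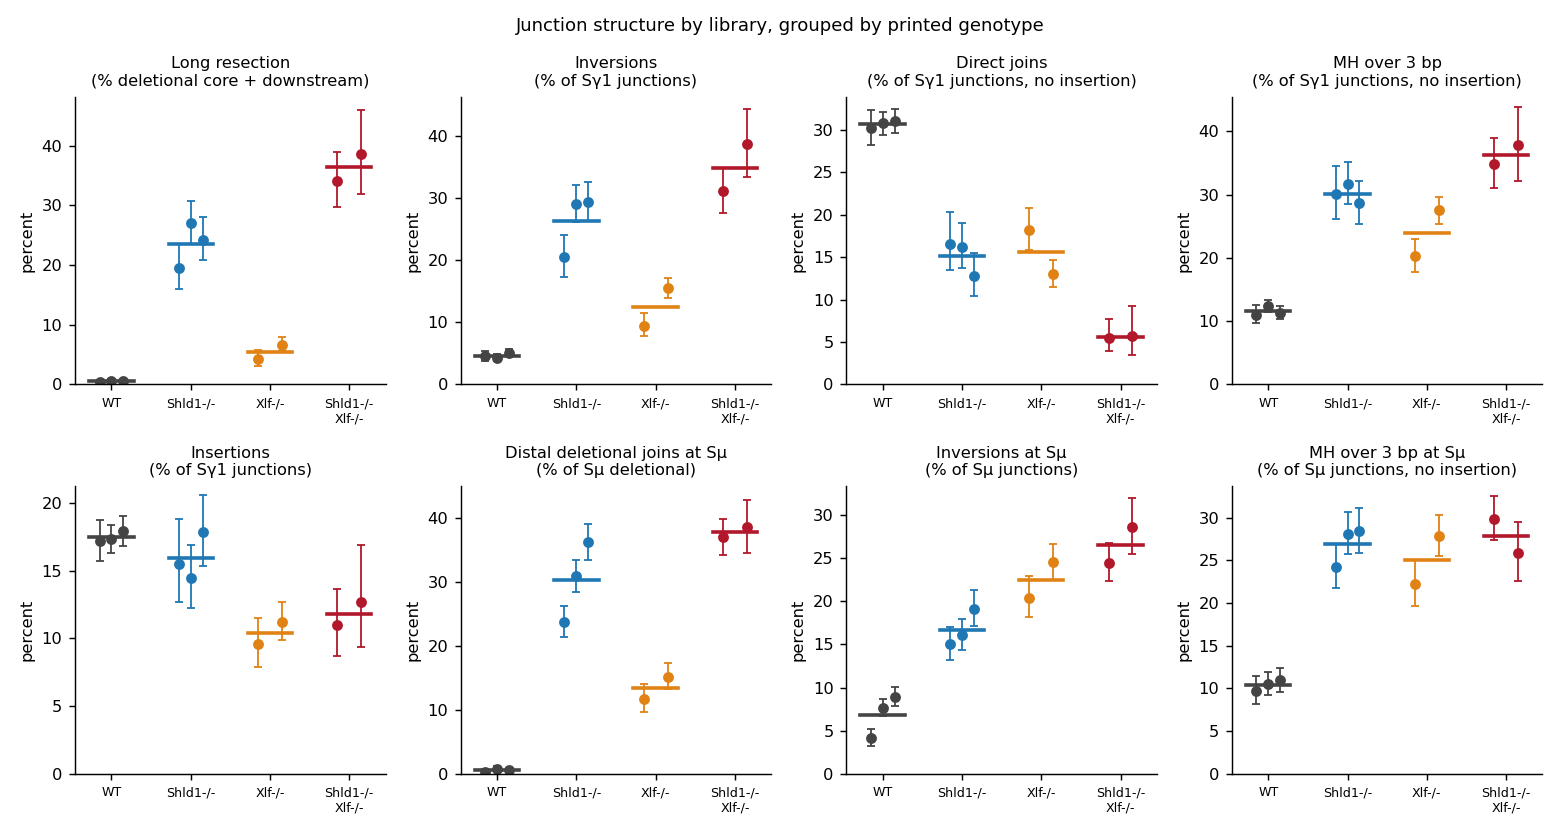
Percentages of 8 junction measures (y axes) in each of the 10 libraries (points, with 95% Wilson intervals), grouped by printed genotype, with set means as horizontal bars. The double-mutant libraries lie apart from all WT libraries in all 8 panels, and for long resection at 34.2% and 38.7% against at most 0.586% in WT.

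Long resection rose. Among deletional joins in core Sγ1 or downstream of it, the share lying past the downstream core edge was 34.2% (139 of 407, 95% interval 29.7 to 38.9%) and 38.7% (70 of 181, 31.9 to 45.9%) in the double-mutant libraries. In WT it was 0.402% (9 of 2239), 0.586% (29 of 4951) and 0.546% (25 of 4579). The groups were far apart, with means of 36.4% ± 3.20 (SD, n = 2) and 0.511% ± 0.0967 (SD, n = 3), a change of 4.70 ± 0.19 (SE) in log odds (limma, adjusted p = 3.6e-08). The definition of this measure was set by comparison with percentages that the study prints for its genotypes, so this is no independent test.

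The tail junctions also lay further out. Their median distance past the core edge was 3352 and 3028 bp in the double mutant and 855, 961 and 474 bp in WT. It was 3098, 3376 and 3775 bp in Shld1-/- and 992 and 1351 bp in Xlf-/-. The tail was counted only to the edge of the Sγ1 window, 7 kb past the core, so all these distances are cut there. Those more than 2 kb past the edge made up 69.1% and 64.3% of the double-mutant tail, and 2 of 9, 8 of 29 and 1 of 25 tail junctions in WT. The tail runs into the exons of Ighg1, which encodes the γ1 constant region and starts, in reading direction, at GRCm38 chr12 position 113330523 with its CH1 exon (GENCODE vM21). Of the 209 double-mutant tail junctions, 161 could be placed on GRCm38 by a unique exact match of 40 bases.

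Of those 161, 154 lay past the start of CH1, 71 in Ighg1 exons and 66 in its introns. In the 2 libraries, joins placed past the start of CH1 were at least 24.8% and 29.3% of deletional core and downstream joins. The values in WT were 0.268%, 0.364% and 0.218%. The start of CH1 lies close to the core edge, and a double-mutant junction 284 bp past the edge already lay in exon 1. In WT too, 34 of 44 placed tail junctions lay past the start of CH1. These shares therefore largely restate long resection past that start. A deletional join past that start removes coding sequence of CH1 from the allele. Beyond the last exon of the secreted form lay 111 of the 161 placed double-mutant junctions and 8 of 44 in WT.

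**Figure D2:**
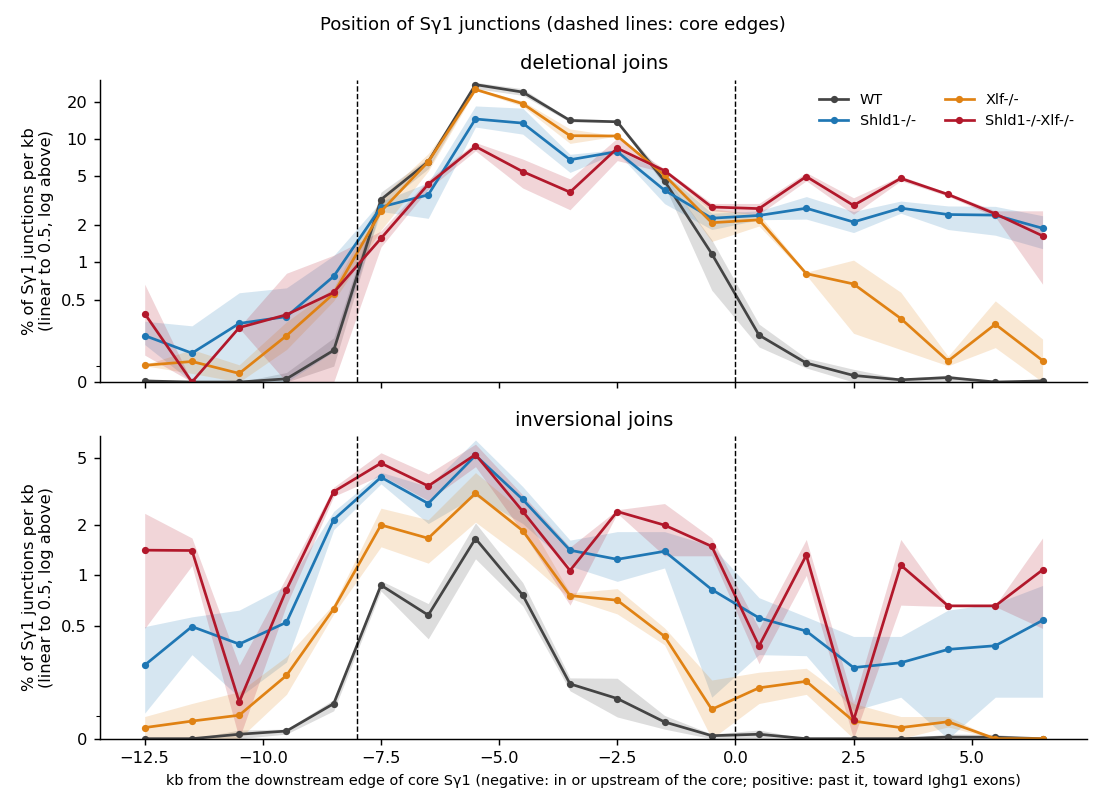
Sγ1 junctions per kb as a percentage of all Sγ1 junctions (y axis, linear to 0.5 and logarithmic above) against distance in kb from the downstream core edge (x axis), deletional joins above and inversional joins below. Lines are means of the printed genotypes, shading spans the lowest to highest library, and the double-mutant line stays near its level past the edge where the WT line falls toward 0.

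Position bins of 1 kb were compared as shares of the junctions in their compartment, Sγ1 or the rest of the Igh window. Of 81 bins, split by orientation and holding at least 20 junctions, 63 were higher and 11 lower in the double mutant, together 91.4% of those tested (limma voom, adjusted p below 0.05). All 7 deletional and all 4 inversional bins downstream of core Sγ1 were higher, whereas within the core 5 of 8 deletional bins were lower and 8 of 8 inversional bins higher. No WT junction at all fell in 21 of the 63 higher bins, among them 3 of the bins named next. The filter counted junctions over all 10 libraries, so bins empty in WT entered only through the mutant libraries. The counts of higher bins and the share of 91.4% are therefore partly set by the filter.

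The largest fitted increases were in 4 bins downstream of core Sγ1 and in 1 bin past Sμ. The deletional bin at 114563001 to 114564000 held 16 and 7 junctions in the double mutant and 0 in each WT library, at least 104-fold higher (against 3 counts over the 3 WT libraries). The bins at 114564001 and 114565001 held 21 and 11 and then 28 and 15 deletional junctions, against 1, 2 and 0 and then 0, 1 and 1 in WT. The inversional bin at 114567001 held 10 and 3 against 0 in WT, at least 58.8-fold higher. The deletional bin past Sμ at 114657001 to 114658000 held 79 and 33 against 0 in WT, at least 103-fold higher.

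Within the core the heaviest-used bins fell. The deletional bin at 114573001 to 114574000 held 42 and 12 double-mutant junctions, 5.92% of Sγ1 junctions pooled, and 528, 1318 and 1149 WT junctions, 24.2% pooled (limma voom, log2 change -2.16 ± 0.28 SE, adjusted p = 6.7e-07). The neighbouring bin at 114572001 fell by 1.90 ± 0.28 on the log2 scale (adjusted p = 3.6e-06). The other 3 largest decreases lay outside Sγ1, upstream of Ighe and Ighg3, and are described with those genes below.

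Orientation changed as well. Inversional joins were 31.0% (190 of 612) and 38.7% (116 of 300) of Sγ1 junctions in the double mutant. In WT they were 4.51% (106 of 2350), 4.27% (221 of 5181) and 5.10% (247 of 4839). The means were 34.9% ± 5.39 (SD, n = 2) and 4.63% ± 0.431 (SD, n = 3), with no overlap, and the log odds rose by 2.40 ± 0.21 (adjusted p = 4.6e-06). Inversional joins also spread out of the core on both sides. Downstream of the core lay 18.4% and 12.9% of double-mutant inversions, against 0 of 106 in WT repeat 1, which allows up to 2.83%, and 1.36% and 0.810% in the other WT libraries. Upstream of it lay 18.9% and 20.7%, against 3.24 to 5.88% in WT. Both shares rose (adjusted p = 2.0e-05 and 4.1e-05). Deletional joins upstream of the core, a rare class, rose from 0.218% ± 0.0477 (SD, n = 3) to 1.73% ± 1.03 (SD, n = 2) of Sγ1 junctions (adjusted p = 5.9e-04), resting on 15 and 3 double-mutant junctions. The call was lost with the core narrowed by 500 bp on each side (log odds 0.43, adjusted p = 0.17).

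Direct joins fell. Among Sγ1 junctions without an insertion, 5.50% (30 of 545) and 5.73% (15 of 262) were direct in the double mutant. In WT the shares were 30.3%, 30.8% and 31.0%. The counting intervals of libraries of 1 genotype overlapped, and those of the genotypes did not. The means were 5.61% ± 0.156 (SD, n = 2) against 30.7% ± 0.386 (SD, n = 3), and the log odds changed by -1.98 ± 0.15 (adjusted p = 1.8e-06).

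Longer MH rose. MH over 3 bp were used by 34.9% (190 of 545) and 37.8% (99 of 262) of double-mutant joins without an insertion. In WT they were used by 11.0% (215 of 1947), 12.3% (529 of 4285) and 11.3% (450 of 3973). The means were 36.3% ± 2.07 (SD, n = 2) and 11.6% ± 0.685 (SD, n = 3), a rise of 1.47 ± 0.14 in log odds (adjusted p = 7.3e-06). MH over 6 bp rose from 2.80% ± 0.446 (SD, n = 3) to 7.66% ± 1.11 (SD, n = 2) (adjusted p = 2.8e-04). The class of 1 to 3 bp as a whole held 58.1% ± 2.22 (SD, n = 2) in the double mutant and 57.8% ± 0.908 (SD, n = 3) in WT (adjusted p = 0.92, 95% interval of the difference in log odds -0.26 to 0.28). Within that class the means of single lengths differed in opposite directions. Joins with 1 bp of MH had a mean of 9.16% ± 0.539 (SD, n = 2) against 28.9% ± 1.05 (SD, n = 3) in WT, whereas joins with 2 bp had 27.1% ± 4.32 against 18.1% ± 0.332 and joins with 3 bp 21.8% ± 6.01 against 10.7% ± 0.529, values that were not tested by length.

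**Figure D3:**
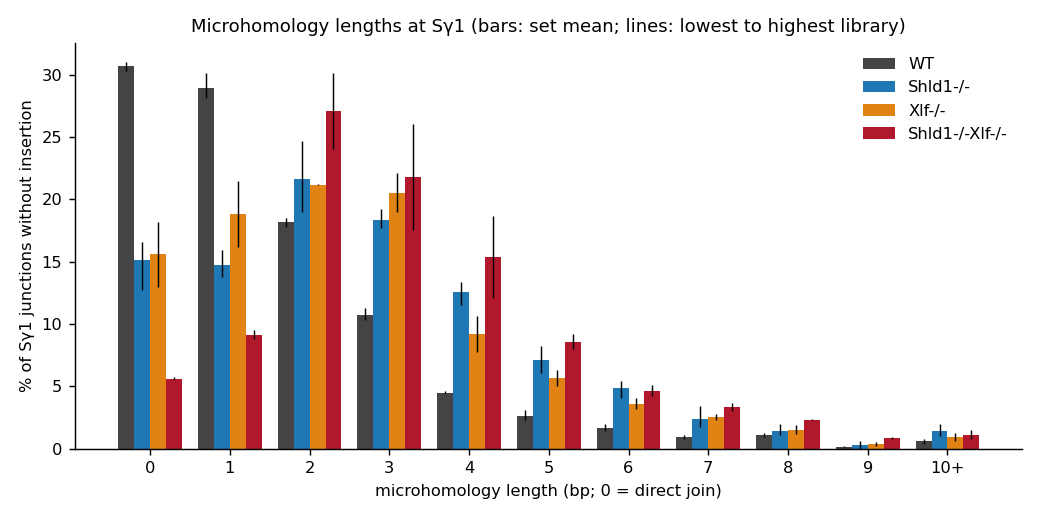
Percentage of Sγ1 junctions without an insertion (y axis) at each MH length in bp (x axis; 0 is a direct join, the last class is 10 bp and over). Bars are means of the printed genotypes and lines span the lowest to highest library, with the WT bars highest at 0 bp (30.7%) and the double-mutant bars highest at 2 bp (27.1%).

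The shift held in each class of junction that was examined. Among deletional joins in the core, 7.76% and 6.93% of double-mutant joins were direct against 30.7 to 31.1% in WT (adjusted p = 4.5e-06), and MH over 3 bp were used by 42.9% and 33.7% against a WT mean of 11.4% ± 0.582 (adjusted p = 2.0e-05). Among inversional joins, 4.82% and 5.10% were direct against 22.5 to 33.5% in WT (adjusted p = 2.0e-05), and MH over 3 bp were used by 28.3% and 38.8% against 13.5 to 16.8% (adjusted p = 0.0011). Downstream deletional joins had 1.65% and 5.00% direct against 21.7 to 33.3% (adjusted p = 0.0012), where the WT libraries offer only 9, 25 and 23 joins. MH over 3 bp among the downstream joins were 28.9% and 43.3% against 0%, 24.0% and 8.70% (adjusted p = 0.011), a call lost without double-mutant repeat 3 (adjusted p = 0.085) and with the core widened by 500 bp on each side (adjusted p = 0.096). The 0 rests on 9 joins in WT repeat 1.

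The MH stretches themselves were varied. The 289 double-mutant joins at Sγ1 with over 3 bp of MH used 152 different stretches, and the 1194 of WT used 278, at unequal depth. The most frequent in the double mutant was CCAGGCA, the first capital stretch of the bait printed above, in 14 of 289 (4.84%), against 41 of 1194 (3.43%) in WT. GGCAGCCA, the last capital stretch, was the most frequent in WT with 63 of 1194 (5.28%) and was used by 3 of 289 (1.04%) in the double mutant. AGCCAG, between them, was used by 8 of 289 and 43 of 1194. Stretches that hold AGCT, a hotspot of activation-induced deaminase that is dense in switch regions, made up 11.1% and 9.97%, and no test was run on single stretches.

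Fewer junctions carried inserted bases, and those that did carried longer ones. Insertions were found in 10.9% (67 of 612) and 12.7% (38 of 300) of double-mutant Sγ1 junctions and in 17.1%, 17.3% and 17.9% of WT junctions, a change of -0.45 ± 0.12 in log odds (adjusted p = 0.0062). That call was lost without the rows flagged for mapping quality (adjusted p = 0.059) and without double-mutant repeat 2 (adjusted p = 0.063). Insertions of more than 3 bp were 27 of 67 and 15 of 38, or 40.3% and 39.5%, of the insertions in the double mutant and 22.6 to 24.6% in WT (log odds 0.78 ± 0.15 higher, adjusted p = 6.3e-04).

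Internal Sμ junctions, which join the bait end to other breaks of the same switch region, changed alongside Sγ1. Deletional joins at least 4 kb past the bait end, which lie beyond most of Sμ, were 37.0% (413 of 1115) and 38.7% (204 of 527) of the double-mutant Sμ deletional joins. In WT they were 0.310%, 0.745% and 0.561%, resting on 5, 19 and 13 junctions. The log odds rose by 4.73 ± 0.25 (adjusted p = 2.0e-07), with means of 37.9% ± 1.18 (SD, n = 2) and 0.539% ± 0.218 (SD, n = 3).

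A deletional join at least 4 kb past this bait necessarily lies past the start of the first μ constant exon (Ighm, chr12 position 113422730, minus strand). All 485 double-mutant and all 29 WT junctions of this kind placed on GRCm38 did, which is no separate finding. Of the 485, 181 lay in Ighm exons and 178 in its introns. Another 126 lay beyond the annotated end of Ighm. As a restatement of the distal share, placed joins of this kind were at least 29.1% and 30.4% of double-mutant Sμ deletional joins and 0.186 to 0.627% in WT. In such a cell the μ exons upstream of the breakpoint have been removed from that allele.

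Inversions at Sμ were 24.5% and 28.6% in the double mutant and 4.11%, 7.61% and 8.89% in WT (log odds 1.64 ± 0.23 higher, adjusted p = 1.1e-04). Direct joins at Sμ were 8.44% and 7.65% against 31.1%, 33.5% and 35.1% (log odds changed by -1.73 ± 0.13, adjusted p = 1.8e-06). MH over 3 bp were used by 29.9% and 25.9% against 9.70%, 10.5% and 11.0% (log odds 1.20 ± 0.14 higher, adjusted p = 2.4e-05). Insertions at Sμ fell from 24.9% ± 0.295 (SD, n = 3) to 16.3% ± 0.726 (SD, n = 2) (adjusted p = 9.6e-04), a call lost without the rows flagged for mapping quality (adjusted p = 0.10).

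Prey outside the Sμ and Sγ1 windows changed as well. The rest of the Igh window held 18.5% and 14.1% of the Igh junctions outside Sγ1 in the double mutant and 4.49%, 5.77% and 5.64% in WT (adjusted p = 5.1e-04). Part of this rise continues the deletional tails past the window edges. Past Sγ1 the deletional bin at 114561001 held 8 and 9 junctions, against 0, 0 and 2 in WT. Past Sμ the deletional bin at 114652001 held 21 and 8, against 0 in each WT library. A pair of places that WT cells used did not follow. Within 10 kb upstream of Ighe, the gene for the ε constant region, which IL-4 also induces, 20, 79 and 59 junctions were placed in the WT libraries, 0.450%, 0.926% and 0.747% of all their junctions. In the double mutant 0 of 3126, which allows up to 0.0960%, and 1 of 1590 were placed there. The single mutants were also low, with means of 0.0846% in Shld1-/- and 0.145% in Xlf-/- against 0.708% in WT, so this was not particular to the double mutant. The deletional bins at 114513001 and 114514001, where all 72 and all 54 placed WT junctions lay in this flank of Ighe, fell in the double mutant (limma voom, adjusted p = 1.9e-04 and 7.9e-06). The first held 90 WT junctions and 0 double-mutant junctions, at least 10.9-fold lower against 3 counts.

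Upstream of Ighg3, the gene for the γ3 constant region, the total did not separate the genotypes, with 0.480% and 0.377% in the double mutant and 0.495%, 0.281% and 0.342% in WT. Deletional joins there were 7 of 15 and 1 of 6 in the double mutant and 20 of 22, 23 of 24 and 24 of 27 in WT. They were 2 of 5, 4 of 13 and 9 of 15 in Shld1-/- and 6 of 8 and 8 of 11 in Xlf-/-. The deletional bin at 114602001, where all 30 placed WT junctions lay in this flank, fell (adjusted p = 2.3e-05), with 42 WT junctions and 0 in the double mutant, at least 5.07-fold lower.

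On chromosome 12 outside the Igh window lay 12.6% and 12.8% of the double-mutant junctions that were not in Sγ1, against 1.48%, 1.04% and 1.40% in WT. The log odds rose by 2.40 ± 0.14 (adjusted p = 2.6e-07). Most of them were on the telomeric side, toward the heavy-chain variable (V) genes, where 298 of 3126 and 147 of 1590 junctions fell, 9.53% and 9.25% of each library. In WT 18, 23 and 26 junctions fell there, 0.405%, 0.270% and 0.329%. The centromeric side had 0.640% and 1.13% in the double mutant and 0.141 to 0.293% in WT.

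The telomeric junctions were dispersed and mostly inversional. The 298 lay at 288 different positions, with a median of 831 kb past the window edge and quartiles of 27.5 and 1628 kb, and the 147 at 138 positions with a median of 836 kb. Inversional joins were 81.5% and 83.0% of them, against 6 of 18, 11 of 23 and 11 of 26 in WT. Of the 283 double-mutant junctions placed on GRCm38, 202 lay between the first and last annotated V gene (chr12:113578504-116000461), 71.4%. It was 24 of 37 in WT (64.9%), 71.3% in Shld1-/- and 60% in Xlf-/-, values that were not tested. This span makes up most of the stretch searched for matches, so the share alone does not show a preference for V genes. Among double-mutant telomeric junctions without an insertion, MH over 3 bp were used by 27.4% and 32.5% and direct joins made up 3.47% and 5.56%. The 3 printed Shld1-/- libraries held 9.70%, 10.7% and 9.82% on this side and the 2 Xlf-/- libraries 1.15% and 1.34%. The double-mutant values were thus below all 3 Shld1-/- values, a difference that was not tested on its own.

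Other chromosomes took 15.3% and 20.6% of the junctions outside Sγ1 in the double mutant and 14.4%, 11.5% and 10.6% in WT, which did not pass the test (limma, adjusted p = 0.051, log odds difference 0.45, 95% interval 0.0017 to 0.91) and passed when any 1 of 4 libraries was left out (lowest adjusted p = 0.029). It also passed with the repeat as a replicate block (0.57, adjusted p = 0.0043), with array weights (adjusted p = 0.021), with a pseudocount of 1 (adjusted p = 0.047) and with the core narrowed by 500 bp (adjusted p = 0.049). The difference itself stayed at 0.45 with the core narrowed, which this measure does not use, and without either Xlf-/- library. In those fits only the shared spread and the adjustment over measures changed.

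**Figure D4:**
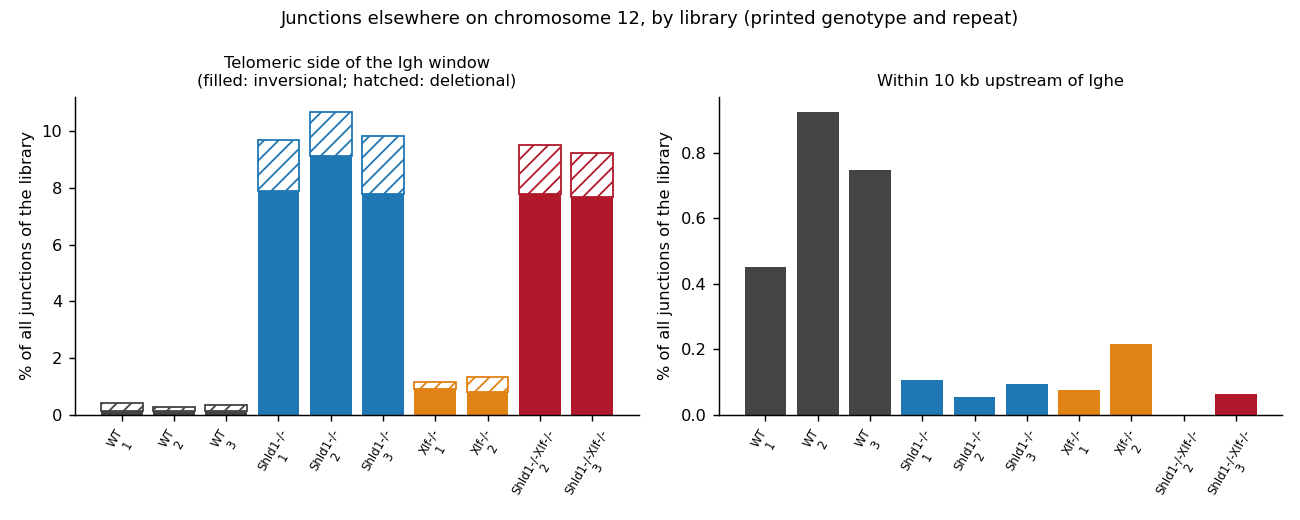
Left, junctions on the telomeric side of the Igh window as a percentage of all junctions (y axis) in each library (x axis), filled for inversional. Hatching marks prey on the same strand as the bait, named deletional in the figure by strand alone. On this side, upstream of the bait, the name does not mean that the DNA in between was removed. Right, junctions within 10 kb upstream of Ighe as a percentage of all junctions, where the WT libraries show 0.450 to 0.926% and the double-mutant libraries 0 and 1 junction.

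Whether the double change equals the sum of the single changes was tested as an interaction in the 2 by 2 design, on percentage points and on log odds, since additivity depends on the scale. The same 3 WT libraries are the control of every single and double change, so the 3 changes are not independent. An interaction passed the test for 4 of 25 measures on percentage points, 16.0%, and for 9 on log odds, 36.0%, of which 8 were below 0. For 3 measures the estimate had opposite signs on the 2 scales, and 3 measures passed on both. The calls in points include direct joins at Sμ and among downstream deletional joins. For these the sum would leave shares of -5.83% and -17.1%, so a positive interaction in points was fixed by the scale. The pass of direct joins at Sμ on both scales therefore rests on log odds alone.

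Long resection is one of those that changed sign. It was 19.4%, 27.0% and 24.3% in the Shld1-/- libraries and 4.29% and 6.64% in the Xlf-/- libraries. All 4 genotypes were separated in this measure, in the order WT, Xlf-/-, Shld1-/- and double mutant. In points the single changes of 23.1 and 4.95 sum to 28.0. The double change was 35.9, an interaction of 7.89 points (95% interval 0.528 to 15.3) that did not pass (limma, adjusted p = 0.16). In log odds the interaction was -1.76 (95% interval -2.37 to -1.16, adjusted p = 0.0013), since a sum on that scale would have given about 77% where 36.4% was measured.

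Inversions at Sγ1 were 20.5%, 29.0% and 29.4% in Shld1-/- and 9.46% and 15.4% in Xlf-/-. The double change of 30.2 points lay 0.751 points above the sum of 29.5 (95% interval -9.76 to 11.3, adjusted p = 0.91), and the interaction in log odds was -0.64 (95% interval -1.31 to 0.04, adjusted p = 0.13). The latter passed without the rows flagged for mapping quality (-0.80, adjusted p = 0.020) and without Xlf-/- repeat 1 (-0.91, adjusted p = 0.038). The width of the interval in points leaves room for a shortfall or an excess of about 10 points.

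Direct joins at Sγ1 were 16.6%, 16.2% and 12.7% in Shld1-/- and 18.2% and 13.0% in Xlf-/-. The single changes of -15.5 and -15.1 points sum to -30.6, which would leave 0.0894%, so the double change of -25.1 points could hardly have been larger than the sum. The interaction was 5.53 points (95% interval -0.358 to 11.4, adjusted p = 0.19). In log odds the sum gives 6.86% and 5.61% was measured (interaction -0.19, 95% interval -0.67 to 0.29, adjusted p = 0.41). For Sγ1 direct joins without the rows flagged for mapping quality the interaction was 9.93 points (adjusted p = 0.021), and without Xlf-/- repeat 1 it was 8.13 points (adjusted p = 0.042).

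MH over 3 bp at Sγ1 were used by 30.1%, 31.7% and 28.6% of Shld1-/- joins and by 20.3% and 27.5% of Xlf-/- joins. The sum of the single changes was 30.9 points and the double change 24.8 (interaction -6.15, 95% interval -13.1 to 0.778, adjusted p = 0.19). In log odds the interaction was -0.59 (95% interval -1.03 to -0.14, adjusted p = 0.043), a call lost in 9 of the 10 fits that left out 1 library. Insertions at Sγ1 were 15.5%, 14.4% and 17.8% in Shld1-/-, 9.56% and 11.2% in Xlf-/- and 10.9% and 12.7% in the double mutant. Both genotypes that lack XLF lay below all Shld1-/- libraries, and the interaction was 2.95 points (95% interval -1.59 to 7.5, adjusted p = 0.31).

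Insertions over 3 bp, as a share of insertions, fell short of the sum on both scales. Their mean rose by 14.8 points in Shld1-/- and by 20.8 in Xlf-/-, a sum of 35.5, while the double change was 16.5. The interaction was -19.0 points (95% interval -28.2 to -9.82, adjusted p = 0.013) and -0.87 in log odds (adjusted p = 0.011). It rests on 67 and 38 insertions in the double mutant, and both calls were lost without its repeat 3 (adjusted p = 0.067 and 0.051).

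Internal Sμ joins were the other measures to pass on both scales. MH over 3 bp at Sμ were used by 24.3%, 28.1% and 28.5% in Shld1-/-, 22.2% and 27.9% in Xlf-/- and 29.9% and 25.9% in the double mutant, so the 3 mutant genotypes overlapped. The double change of 17.5 points was near each single change, of 16.6 and 14.6. The interaction was -13.7 points (95% interval -20.6 to -6.81, adjusted p = 0.013) and -1.005 in log odds (adjusted p = 0.0038), the former lost without double-mutant repeat 3 (adjusted p = 0.073). Direct joins at Sμ changed by -19.1 points in Shld1-/-, -19.9 in Xlf-/- and -25.2 in the double mutant. A sum in points would have left a share below 0%, so the positive interaction in points was fixed by the scale (13.9 points, limma, adjusted p = 0.0056). In log odds the measured 8.05% lay 0.56 above the sum (95% interval 0.15 to 0.97, adjusted p = 0.041), a call lost in 9 of the 10 fits that left out 1 library.

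Distal deletional joins at Sμ had means of 30.3% in Shld1-/-, 13.4% in Xlf-/- and 37.9% in the double mutant. The interaction was -5.34 points (95% interval -15.2 to 4.55, adjusted p = 0.39) and -3.01 in log odds (95% interval -3.81 to -2.21, adjusted p = 3.5e-04), where the sum would have given 92.5%. In points this interaction passed without the rows flagged for mapping quality (-13.5, limma, adjusted p = 0.038). Inversions at Sμ had an interaction of -5.79 points (95% interval -12.9 to 1.28, adjusted p = 0.20) and -0.82 in log odds (95% interval -1.56 to -0.09, adjusted p = 0.073), calls gained on both scales without the rows flagged for mapping quality (adjusted p = 0.028 and 0.015). For junctions on chromosome 12 outside the Igh window the double change of 11.4 points was below that of Shld1-/- alone, 12.6. Its interaction was -1.18 in log odds (adjusted p = 0.0016) and -3.62 points, which did not pass (adjusted p = 0.19). Without the rows flagged for mapping quality it passed in points (-4.65, limma, adjusted p = 0.041).

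Inversions downstream of core Sγ1 and deletional joins upstream of it had interactions of -1.58 (adjusted p = 0.034) and -1.67 (adjusted p = 0.039) in log odds, lost in 4 and 7 of the 10 fits that left out 1 library, and did not pass in points (adjusted p = 0.91 and 0.71). Direct joins among downstream deletional joins passed in points, 20.4 above a sum that would have left a share below 0% (adjusted p = 0.019). The positive sign was thus fixed by the scale. The call was lost in 3 such fits, with the core edges moved by 500 bp (adjusted p = 0.36 widened and 0.062 narrowed), with the repeat as a replicate block (0.056) and with array weights (0.068). In log odds it did not pass (adjusted p = 0.073), but did with a pseudocount of 1 (0.039), without rows flagged for mapping quality (0.046), without Xlf-/- repeat 2 (0.0062) and without double-mutant repeat 2 (0.040). In the position bins the interaction passed for 34 of 81, 42.0%, with 32 below 0 and 2 above on the log2 scale (limma voom). Among the deletional bins downstream of core Sγ1, 6 of 7 passed below 0, and in the core 1 of 8 did. Where WT held few or no junctions, the single changes start from the pseudocount, and their sum can exceed any possible share. The deletional bin at 114657001, empty in WT, had single changes of 7.26 and 5.87 and an interaction of -5.48. A value below 0 in such bins can be set by the scale, so these counts do not show a shortfall.

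**Figure D5:**
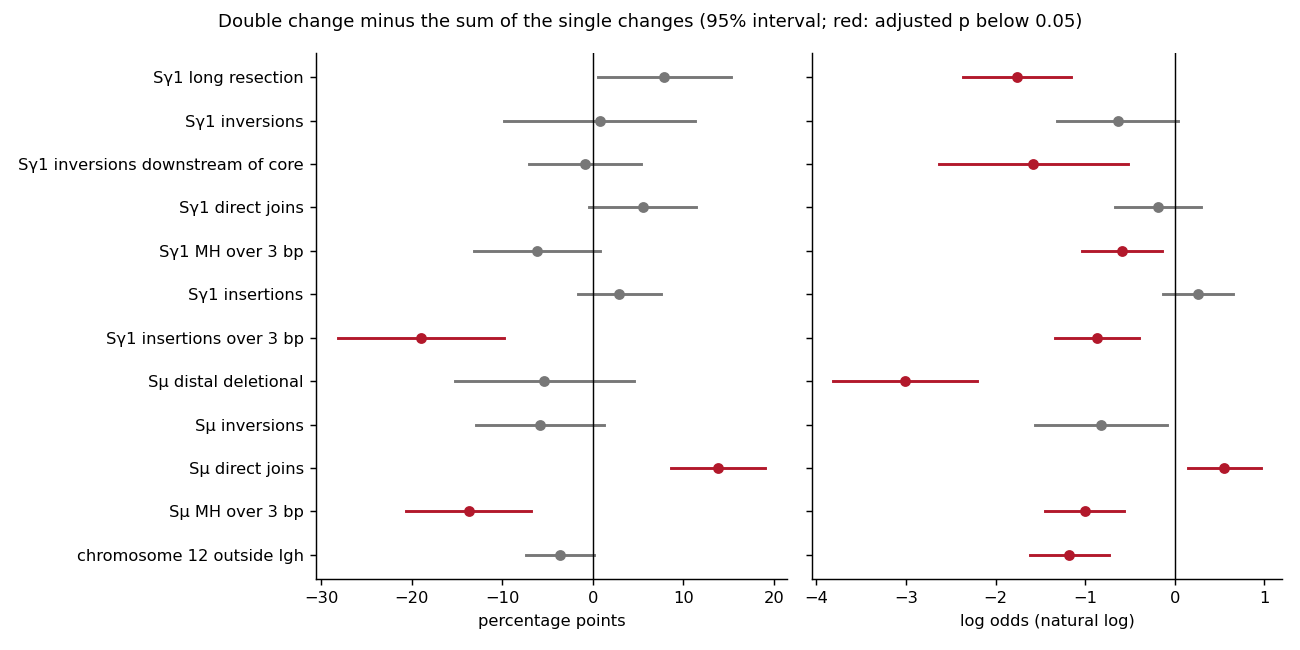
Double change minus the sum of the single changes, with 95% intervals, for 12 measures (rows) in percentage points (left) and log odds (right). Red marks adjusted p below 0.05, and long resection lies at 7.89 on the left and at -1.76 on the right.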

How the data were processed

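CSR-HTGTS libraries were made with a 5′Sμ bait. The authors mapped reads to mm9 with Bowtie2 (per the labels) and deposited, for each library, 1 row per junction with read, position, strand and sequence, so the values counted here have no normalized unit (other). Rows were used as deposited. MH was counted as read bases claimed by both alignments, and unclaimed bases between them as an insertion. The core edges were read from the study's plots. Members, windows and definitions were chosen with earlier results of these data known, and long resection was set by comparison with printed percentages.

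Shares were fitted by limma 3.58.1 (R 4.3.3) in a 2 by 2 design over the 10 libraries, as log odds (pseudocount 0.5) and as percentage points, with Benjamini-Hochberg adjustment over 25 measures, and bins by limma voom. The study describes separate mice, but the labels name none, so p-values cover the spread between libraries. Fits were tested on simulated data. Prey segments were matched to GRCm38 (GENCODE vM21) by 40 bases, 16955 in the 2 switch windows, 97.7% of them at 1 constant offset from mm9. Named bins are the 5 largest changes each way among passing, non-overlapping bins. A pair of lists hold MH lengths only, and 3 libraries of another strain were not used.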

Additional observations from a re-analysis of the deposited data

Results flagged for a closer look

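The interaction test, of whether the change that SHLD1 loss made differed with and without XLF, passed (limma, adjusted p below 0.05) for the following measures. Several of these calls were lost when 1 library was left out, as given above. Long resection passed in log odds only and had the opposite sign in points (7.89, limma, adjusted p = 0.16). In log odds the interaction was -1.76 for long resection at Sγ1, -1.67 for deletional joins upstream of the core, -1.58 for inversions downstream of it, -0.59 for MH over 3 bp, -0.87 for insertions over 3 bp, -3.01 for distal deletional joins at Sμ, 0.56 for direct joins at Sμ, -1.005 for MH over 3 bp at Sμ and -1.18 for chromosome 12 outside the Igh window. In percentage points it was -19.0 for insertions over 3 bp, 20.4 for direct joins among downstream deletional joins, 13.9 for direct joins at Sμ and -13.7 for MH over 3 bp at Sμ. For both direct-join measures the sum of the single changes would leave a share below 0%, so a positive interaction in points was fixed by the scale, and those values in points are no sign of a difference.

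A pair of deposited lists hold MH lengths without positions and belong to no genotype set above. The list labelled Shld1-/- replicate 1 held 1028 junctions, 29.2% of them with MH over 3 bp and 9.53% direct. The list labelled Shld1-/-XLF-/- replicate 2 held 1093 junctions, 26.2% with MH over 3 bp and 11.6% direct. In the WT libraries MH over 3 bp made up at most 12.3% at Sγ1. The lists do not say which region their junctions come from, and the difference from WT was not tested.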

How the results depend on the processing

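Grouping by deposited label had the largest effect. Under it 0, 0 and 0 measures passed for double against WT, the interaction in points and the interaction in log odds (limma; 0, 0 and 0 also at an unadjusted p below 0.05). The log odds for double against WT became 2.53 for long resection, 1.55 for Sγ1 inversions, -1.03 for direct joins, 0.73 for MH over 3 bp, 0.11 for insertions, -0.013 for MH of 1 to 3 bp, 0.90 for Sμ inversions, 2.44 for Sμ distal joins and -0.13 for other chromosomes. The interactions in log odds became 1.76 for long resection, 0.33 for deletional joins upstream of the core, 0.92 for inversions, 0.72 for downstream inversions, 0.44 for MH over 3 bp, 0.45 for insertions over 3 bp and -1.13 for downstream direct joins. At Sμ they became 0.34 for inversions, 1.83 for distal joins, -0.62 for direct joins and 0.31 for MH over 3 bp, and for chromosome 12 outside the window 1.25. In points they became 2.49 for downstream inversions, -9.07 for direct joins, 7.09 for MH over 3 bp, 10.04 for insertions over 3 bp and -8.43 for downstream direct joins. At Sμ they became 5.87 for inversions, 15.99 for distal joins, -10.7 for direct joins and 3.68 for MH over 3 bp, and for chromosome 12 outside the window 5.27.

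Without rows flagged for mapping quality 9 interactions passed in points and 14 in log odds. Sγ1 inversions became -1.33 points and -0.80 in log odds, direct joins 9.93 points and 0.10 in log odds, Sμ inversions -8.84 points and -0.87 in log odds, and Sμ distal joins -13.5 points. Sγ1 insertions for double against WT became -0.30 and no longer passed. MH of 1 to 3 bp became -0.052, -0.039 without duplicate-flagged rows, and -0.033 with identical junctions counted once.

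The deviations of same-numbered repeats from their genotype means were correlated with r from -0.26 to 0.49 over 12 pairs. Each genotype has too few libraries, and the measures overlap too much, for these values to show whether the numbers pair the libraries. Fits with and without the repeat as a block are therefore both given. With the repeat as a replicate block, Sγ1 inversions became -2.51 points and -0.85 in log odds and Sμ inversions -8.39 points and -1.09 in log odds, the last 3 passing, and other chromosomes for double against WT became 0.57 and passed. Of the measures, 24 passed for double against WT, 4 interactions in points and 11 in log odds, and of the bins 75 and 36. Array weights gave -0.20 points for Sγ1 inversions, a core narrowed by 500 bp on each side 0.092 points for downstream inversions, and no filter on junctions per bin 204 passing bins.

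Leaving out 1 library at a time, which can leave a lone double or Xlf-/- library whose spread is taken from the others, gave 22 to 24 passing measures for double against WT, 1 to 7 interactions in points, 4 to 9 in log odds, and 60 to 76 and 24 to 42 bins. The low counts of 1 and 4 came without double-mutant repeat 3, 7 without Xlf-/- repeat 1, and 5 in log odds without Shld1-/- repeat 2 or 3. Sγ1 inversions ran from -3.06 to 4.56 points and -0.91 to -0.36 in log odds, direct joins from 2.92 to 8.13 points and -0.39 to 0.0094, and MH over 3 bp from -9.77 to -2.53 points and -0.79 to -0.39. Downstream inversions ran from -3.61 to 1.88 points, Sμ inversions from -0.99 to -0.58 in log odds, insertions for double against WT from -0.54 to -0.37, and MH of 1 to 3 bp from -0.053 to 0.077.

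The changes in long resection, inversions, direct joins, MH over 3 bp and Sμ distal joins for double against WT kept direction and call under all alternatives run except the deposited labels. Double-mutant repeat 3, with 300 Sγ1 junctions, limits the precision, and so does the WT tail of 9 to 29 junctions.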
